A study of Mus musculus with 16 samples.

Results

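The 31 genes described here belong to the enteroendocrine lineage of the gut: 10 peptide hormone genes, 3 genes of serotonin synthesis and storage, 5 granins, 4 genes of prohormone processing and 9 transcription factors. They were taken by symbol from a list, which was chosen with earlier results of these data known. All 31 stood among the 46882 gene entries of the deposited count tables. Their transcripts were followed in 16 bulk RNA sequencing libraries of sorted mouse intestinal epithelium, 4 in each of 4 groups. 29 of the 31 passed the filter on low counts and were tested, and Pcsk2 and Fev were too low.

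All 16 libraries came from mice of the RedMUC298trTg line aged 6 to 8 weeks. The line carries an mCherry-tagged MUC2 mucin reporter, so that mucus-making cells fluoresce red. Live cells were sorted by mCherry: the positive cells are called goblet and the negative epithelial cells are called other. Both sorts were taken from the distal colon (DC) and from section 8 of the small intestine (Si8), which gave DC other, DC goblet, Si8 other and Si8 goblet cells. The labels name the other sort colonocytes in DC and enterocytes in Si8. It was defined by the lack of mCherry alone, and no group was sorted for enteroendocrine cells. All 4 groups carry the transgene, and the C57Bl6 mouse mentioned in the protocol served only to set the gate. Whether the 4 libraries of a group stem from different mice is not recorded in the labels, so p-values reflect only how much these samples vary, and that variation may be technical.

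Enteroendocrine cells are rare, scattered epithelial cells that sense the gut contents and release peptide hormones or serotonin from dense-core granules. They arise from the same crypt progenitors as goblet cells: the transient factor Neurog3 commits a cell to the endocrine fate, and Neurod1, Insm1, Pax4, Pax6, Isl1, Rfx6 and Nkx2-2 act after it. Each region of the gut is known for its own hormones, with Gip and Cck typical of the upper small intestine, Nts of the lower small intestine, and Insl5 and Pyy of the colon. Granins are acidic proteins that help to form the granule, and convertases of the Pcsk family cut the prohormones inside it.

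Of the promoter sequences of these genes, 6 are shown because they share a cyclic AMP response element (CRE), a short motif known from the promoters of neuroendocrine genes, although the genes themselves did not all move alike. RefSeq promoters (GRCm38.p6) matched 27 of the 31 genes. Pax4, Cpe, Slc18a1 and Insm1 were unmatched. In the 250 bases before the start, the CRE motif TGACGTNA was found on either strand in 6 of 27 promoters (22.2%), beside 828 of 32851 RefSeq promoters (2.52%). The E-box CAGNTG, the motif of basic helix-loop-helix factors such as Neurog3 and Neurod1, was found in 17 of 27 (63.0%), beside 44.8% of all. Each line gives 30 bases, 5′ to 3′ on the strand of the gene, with the CRE in capitals.
Chga: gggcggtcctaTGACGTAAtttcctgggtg
Chgb: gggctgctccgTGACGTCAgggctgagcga
Scg2: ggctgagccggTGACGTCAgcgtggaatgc
Sst: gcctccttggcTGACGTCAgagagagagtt
Pcsk1: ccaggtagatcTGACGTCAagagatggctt
Pax6: tctggccgccgTGACGTCAtccgcgcccgg
The windows lie at chr12:102554886-102554915 (plus strand) for Chga, chr2:132781559-132781588 (plus) for Chgb, and chr1:79440076-79440105 (minus) for Scg2. Those of Sst, Pcsk1 and Pax6 lie at chr16:23890874-23890903 (minus), chr13:75089768-75089797 (plus) and chr2:105668809-105668838 (plus). The motif stood between 36 bases (Chga) and 70 bases (Pcsk1) before the RefSeq start. The windows of Chgb, Scg2 and Sst fall inside the span of the longer GENCODE M21 gene, and the other 3 lie upstream of it. A CRE that ends in CA can share these 2 bases with an E-box. A match describes the letters only, and binding was not measured.

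Total counts ranged from 11.9 M (M stands for 10 to the power 6) to 18.5 M per DC library and from 30.8 to 41.1 M per Si8 library. A count of 0 therefore allows up to 0.252 counts per M raw counts of the library in DC and up to 0.0973 in Si8, for counting error only. CPM below means counts per M counts of the library, on TMM-scaled totals. The 7 goblet markers, led by Muc2, summed to 34481 to 38983 CPM in DC goblet and to 234 to 295 CPM in DC other libraries. In Si8 the sums were 121091 to 281897 CPM and 278 to 711 CPM. Of other cell types, the 5 colonocyte markers were 37.9-fold higher in DC other than in DC goblet cells, and the 7 small intestinal enterocyte markers were 7.78-fold higher in Si8 other than in Si8 goblet cells. The 5 intraepithelial lymphocyte markers were higher in the other sort by 2.70-fold in DC and 15.7-fold in Si8. Paneth markers reached 12042 to 32220 CPM in Si8 goblet and 659 to 1759 CPM in Si8 other libraries. The mitochondrially encoded genes had 0 counts in every DC library and took 3.19% to 8.36% of the counts in Si8. Goblet RNA was eluted from MinElute columns and other RNA from Mini columns, and the effect of the column cannot be told apart from that of the sort.

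Enteric neurons also make several of these peptides and granule proteins, and their markers were low. The 6 neuron markers (Elavl4, Tubb3, Prph, Uchl1, Snap91, Chat) together reached 1.84 to 3.14 CPM in DC other, 1.31 to 2.13 in DC goblet, 2.12 to 2.85 in Si8 other and 1.02 to 1.90 in Si8 goblet libraries. Each of the 6 had counts in every group. Their mean sums were 1.55-fold higher in other than in goblet cells in DC and 1.81-fold higher in Si8. Only 2 of the 6 passed the filter: 1 was lower in DC goblet and 2 in Si8 goblet cells, beside 27.9% and 31.8% lower of all genes tested. The part of neural RNA in the members' values was not tested. The 4 glial markers summed to at most 1.09 CPM in any library, and Sox10 was at 0 in DC other and Si8 goblet cells.

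Within the Si8 groups the 29 tested genes tended to be high or low in the same libraries. In Si8 other cells library S7 had the highest value for 24 of the 29 tested genes and S3 the lowest for 22. In Si8 goblet cells S8 was highest for 24 and S4 lowest for 23. The DC groups were less uneven, with S14 highest for 16 genes and S10 lowest for 16 in DC other cells, and S11 highest for 14 in DC goblet cells. Library S7 also had the highest small intestinal enterocyte sum of its group (19553 CPM) and S3 the lowest (9803 CPM). The tuft sum was likewise highest in S7 (74.2 CPM) and lowest in S3 (52.5 CPM). Library S8 had the highest small intestinal enterocyte (2348 CPM), tuft (60.8 CPM) and Paneth sums of the Si8 goblet group. S4 had the lowest enterocyte (1261 CPM) and tuft (35.3 CPM) sums, while its Paneth sum was not the lowest. The part of these in the members' values was not tested. S7 and S8, and S3 and S4, have neighbouring numbers, as do an other and a goblet library of the same region throughout (1 and 2, 3 and 4, up to 17 and 18). No label pairs them. Over all genes tested, the deviations from the group mean of the 8 such pairs correlated at 0.109 to 0.549. The 24 pairs across sorts of a region that were not neighbours correlated at -0.466 to 0.302, so the ranges overlapped. The neighbour gave the highest correlation for 7 of 8 other and 8 of 8 goblet libraries. In DC, library S12 correlated more with S18 (0.112) than with its neighbour S11 (0.109). An edgeR fit with each neighbouring pair as a block, called the replicate block below, was chosen after seeing the data and is given where it changed a call. Leaving out any single library left 19 to 24 genes lower in Si8 goblet cells, with 24 without S8, 20 without S7 and 19 without S4, beside the 22 described next.

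Most of the enteroendocrine genes were lower in goblet than in other cells, in both regions. With edgeR's quasi-likelihood test and a Benjamini-Hochberg adjusted p under 0.05 over the 16001 genes tested, 21 of 29 were lower and 1 was higher in DC goblet cells. Among all genes tested, 27.9% were lower and 27.8% higher in that comparison. In Si8 goblet cells 22 of 29 were lower and 2 were higher, beside 31.8% lower and 33.1% higher of all genes. The median log2 difference (goblet minus other) over the 29 was -2.0 in DC and -1.36 in Si8, against 0.028 and 0.029 over all genes tested. 17 of the 29 were lower in both regions, beside 18.2% of all genes tested.

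The fold differences of the lower genes ran from 1.85 (Ddc) to 13 (Pcsk1n) with a median of 4.62 in DC, and from 1.30 (Pcsk1) to 8.84 (Insl5) with a median of 2.98 in Si8. All 31 genes together held 608 to 792 CPM in DC other libraries and 164 to 203 CPM in DC goblet libraries. In Si8 they held 509 to 757 CPM in other and 255 to 371 CPM in goblet libraries. In these bulk samples, fewer enteroendocrine cells in a sort and less RNA of a gene per cell cannot be told apart.

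**Figure D1:**
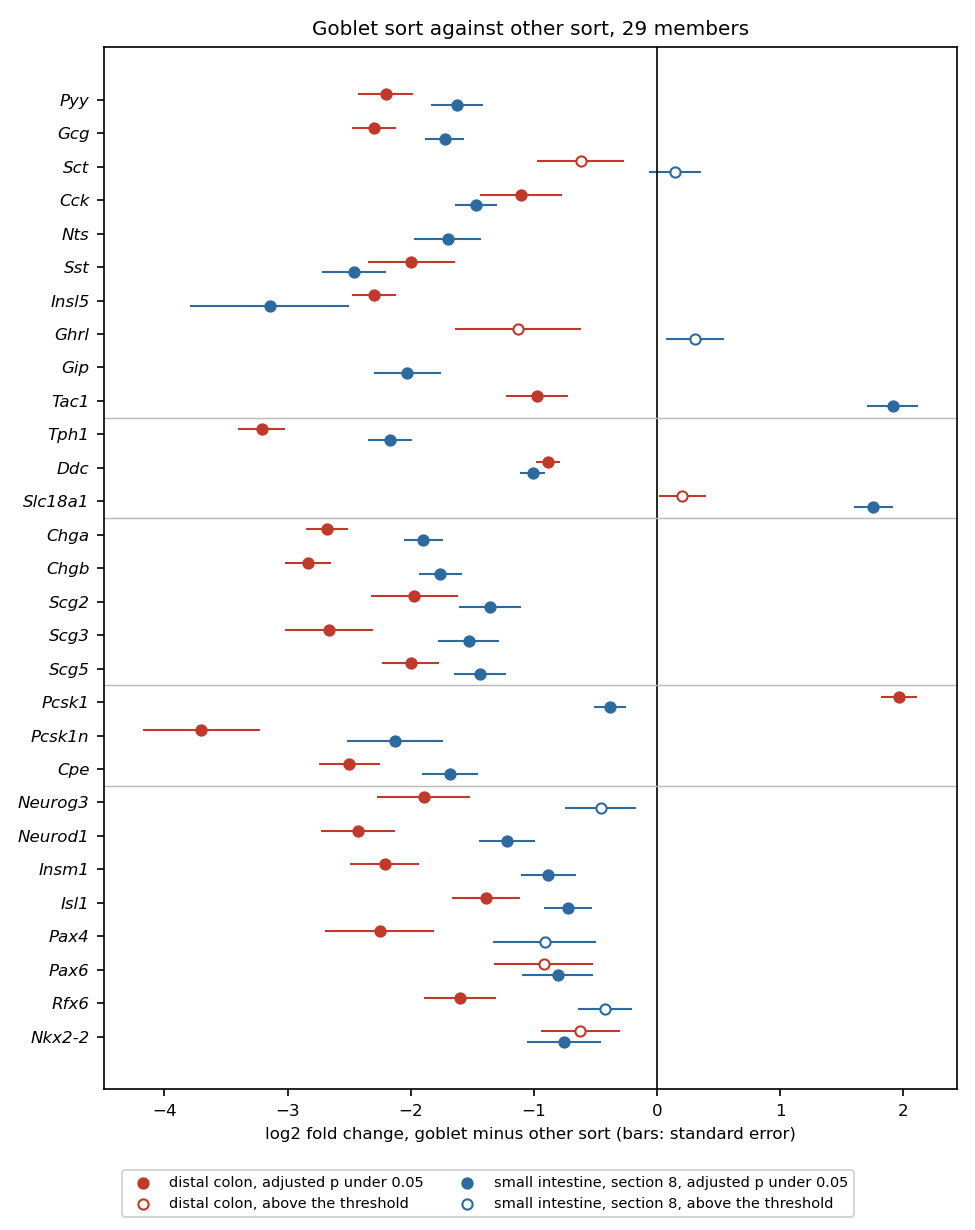
Log2 fold change of goblet minus other cells (x axis, bars are standard errors) for the 29 tested genes in the distal colon (red) and section 8 of the small intestine (blue), grouped by role; filled points have an adjusted p under 0.05. Most points lie left of 0, while the filled points of Pcsk1 in DC and of Tac1 and Slc18a1 in Si8 lie to the right. Open points right of 0 are those of Slc18a1 in DC and of Sct and Ghrl in Si8. The DC points of Nts and Gip, which rest on 1 count in DC goblet cells, are left out.

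Among the 10 peptide hormones, 6 were lower in DC goblet than in DC other cells, and in Si8 7 were lower and 1, Tac1, was higher. Of all genes tested, 27.9% were lower and 27.8% higher in DC goblet cells, and 31.8% lower and 33.1% higher in Si8 goblet cells. Pyy, which encodes peptide YY, a satiety hormone of L cells (chr11:102106676-102107832, 4 exons in GENCODE M21), had 32, 37.3, 42.8 and 51.1 CPM in the DC other libraries and 7.59, 7.87, 8.53 and 11.2 in the DC goblet libraries, listed here and below from lowest to highest. The groups did not overlap, and DC goblet cells were 4.61-fold lower (log2 -2.20 ± 0.22 SE, edgeR adjusted p = 2.27e-07). Section 8 showed the same order without overlap, with 25.1, 34.7, 36.1 and 43 CPM in other and 7.07, 11, 11.9 and 15 in goblet libraries (3.08-fold lower, edgeR adjusted p = 3.61e-06). Between regions, Pyy in other cells differed by less than the spread between libraries, with means of 40.8 ± 8.18 CPM in DC and 34.7 ± 7.39 in Si8 (SD, n = 4; edgeR adjusted p = 0.321).

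Gcg, the proglucagon gene that gives GLP-1 in the gut, had 33.9, 43.1, 43.2 and 45.5 CPM in DC other and 7.12, 7.99, 9.12 and 9.49 in DC goblet libraries. Its goblet level was 4.92-fold lower in DC (edgeR adjusted p = 3.11e-09). In Si8 it had 82.4, 82.4, 83.9 and 104 CPM in other and 19, 25, 25.3 and 37.6 in goblet libraries, again without overlap (3.3-fold lower, edgeR adjusted p = 3.35e-08). In contrast to Pyy, Gcg was lower in DC than in Si8, by 2.13-fold in other cells (edgeR adjusted p = 7.58e-06).

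Insl5, the insulin-like peptide of colonic L cells (chr4:103017872-103026842), separated the regions most strongly in the colonic direction. It had 28.9, 36.1, 40.5 and 49.1 CPM in DC other libraries and 0.260, 0.277, 0.278 and 0.324 CPM in Si8 other libraries, a 134-fold difference (edgeR adjusted p = 5.77e-15). Within DC, goblet libraries had 6.18, 6.62, 8.21 and 10.2 CPM, all below the other sort (4.91-fold lower, edgeR adjusted p = 1.31e-09). In Si8 goblet cells only 4 counts were found in all, against 37 in Si8 other cells (8.84-fold lower, edgeR adjusted p = 0.000314).

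Nts and Gip were close to the detection floor in the colon. Nts, which encodes neurotensin, a peptide of N cells (chr10:102481756-102490486), had 30.9, 46.8, 48.7 and 62 CPM in Si8 other and 7.48, 13.3, 14.8 and 22.4 CPM in Si8 goblet libraries (3.25-fold lower in goblet, edgeR adjusted p = 4.52e-05). The DC other libraries held 0, 1, 3 and 6 counts, 309-fold below Si8 other (edgeR adjusted p = 3.64e-10), and leaving out the DC other library with 6 counts, S14, moved the log2 difference from -8.27 to -9.15. A single count was seen over the 4 DC goblet libraries against 2055 in Si8 goblet, a ratio of 1039 with a 95% counting interval of 186 to 41053. Gip, the incretin of K cells (chr11:96024545-96030831), had 4.48, 8.07, 8.81 and 12.8 CPM in Si8 other and 1.51, 2.17, 2.3 and 2.37 CPM in Si8 goblet libraries (4.07-fold lower, edgeR adjusted p = 2.90e-06). Both of its sorts in DC were at the floor, with 4 counts in DC other and 1 in DC goblet cells. Against 298 counts in Si8 goblet cells that gave a ratio of 151 with a 95% counting interval of 26.8 to 5970.04. Within DC, neither gene passed the edgeR test between sorts. The lower DC goblet level of Nts passed with DESeq2 (adjusted p = 0.0168) and with the replicate block (edgeR adjusted p = 0.0233), and 10 against 1 counts of Nts gave a ratio of 10.7 with an interval of 1.52 to 464.

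Cck, the cholecystokinin gene, and Sst, which encodes the inhibitory peptide somatostatin of D cells, were both lower in goblet cells and in the colon. Cck had 9.93, 11, 11.2 and 12.2 CPM in Si8 other libraries and 3.2, 3.58, 4.25 and 4.97 CPM in Si8 goblet libraries, which did not overlap (2.77-fold lower, edgeR adjusted p = 3.01e-07). In DC its means were 0.83 ± 0.167 CPM in other and 0.361 ± 0.208 CPM in goblet cells (SD, n = 4; 2.15-fold lower, edgeR adjusted p = 0.00872). The DC other level of Cck lay 13.3-fold below that of Si8 other cells (edgeR adjusted p = 1.10e-11). Sst had 12.7, 14, 15.9 and 23.8 CPM in Si8 other and 1.82, 1.95, 3.53 and 4.74 CPM in Si8 goblet libraries (5.5-fold lower, edgeR adjusted p = 2.60e-07). In DC it had 3.03, 3.89, 4.2 and 5.07 CPM in other and 0.735, 0.994, 1.04 and 1.2 CPM in goblet libraries (3.99-fold lower, edgeR adjusted p = 0.000110), so the sorts stood apart in both regions.

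Sct and Ghrl were the 2 tested genes that passed the edgeR sort test in neither region, a result that changed with the replicate block. Sct encodes secretin, the hormone that drives bicarbonate secretion, and Ghrl encodes ghrelin, the appetite hormone of X cells. Sct had 32.3, 35.1, 56.9 and 64.6 CPM in Si8 other and 37.9, 44.3, 63.1 and 64 CPM in Si8 goblet libraries, and the sorts overlapped (log2 0.15 ± 0.21 SE, edgeR adjusted p = 0.554). In DC it had 1.94, 2.33, 2.79 and 3.44 CPM in other and 1.48, 1.67, 1.7 and 2.06 CPM in goblet libraries (log2 -0.62 ± 0.35 SE, edgeR adjusted p = 0.151). Its region difference was far larger than the spread: DC lay below Si8 by 18-fold in other and 30.6-fold in goblet cells (edgeR adjusted p = 5.44e-10 and 1.92e-10). Ghrl had 3.9, 5.69, 6.09 and 7.03 CPM in Si8 other and 4.0, 7.22, 7.32 and 9.54 CPM in Si8 goblet libraries (log2 0.31 ± 0.24 SE, edgeR adjusted p = 0.266). Without the lowest Si8 goblet library, S4, the same difference was 0.51 with an edgeR adjusted p of 0.0465. With DESeq2, the lower DC goblet levels of Sct and Ghrl passed (adjusted p = 0.0399 and 0.0191). In DC, Sct also passed in an edgeR fit of the 2 DC groups alone (adjusted p = 0.0161), and Ghrl with no filter (0.0104) and without DC goblet library S11 (0.0320). With the replicate block, Sct was lower in DC (log2 -0.59, edgeR adjusted p = 0.00331) and higher in Si8 goblet cells (log2 0.17, edgeR adjusted p = 0.0329). Ghrl was then lower in DC (log2 -1.11, edgeR adjusted p = 0.0211), and in Si8, where the goblet library was higher in each pair, it did not pass (edgeR adjusted p = 0.0771). In DC the Ghrl means were 0.666 ± 0.248 CPM in other and 0.291 ± 0.172 CPM in goblet cells (edgeR adjusted p = 0.0706). Exons of Ghrl overlap those of 2 opposite-strand genes, and the strand setting of the counting is not given in the sources used here.

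Tac1, the precursor of substance P and neurokinin A (chr6:7554879-7565834), went in opposite directions in the 2 regions. In Si8 the goblet libraries had 25.7, 47, 55.4 and 68 CPM, all above the other libraries at 11, 13, 13.6 and 14.4 (3.77-fold higher, edgeR adjusted p = 4.06e-07). In DC the goblet libraries had 3.53, 3.71, 3.84 and 5.14 CPM, all below the other libraries at 7.37, 7.49, 8.15 and 9.07 (1.97-fold lower, edgeR adjusted p = 0.00323). The difference between the 2 effects was -2.89 ± 0.32 SE on the log2 scale (edgeR adjusted p = 2.64e-06). Tac1 did not follow the usual order of libraries within Si8 goblet cells. Its lowest value was in library S8, where 24 of the 29 tested genes had their highest. The 6 neuron markers summed to at most 1.90 CPM in those libraries. The 5 Paneth markers summed to a mean of 20776 CPM in Si8 goblet and 995 CPM in Si8 other cells. Within the Si8 goblet libraries, S2 had the highest Tac1 and the lowest Paneth sum (12042 CPM), and S8 had the lowest Tac1 and the highest Paneth sum (32220 CPM). Between these ends the order differed: S4 had more Tac1 than S6 (55.4 against 47 CPM) and also a higher Paneth sum (22199 against 16642 CPM). A link of Tac1 with either set of markers was not tested.

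**Figure D2:**
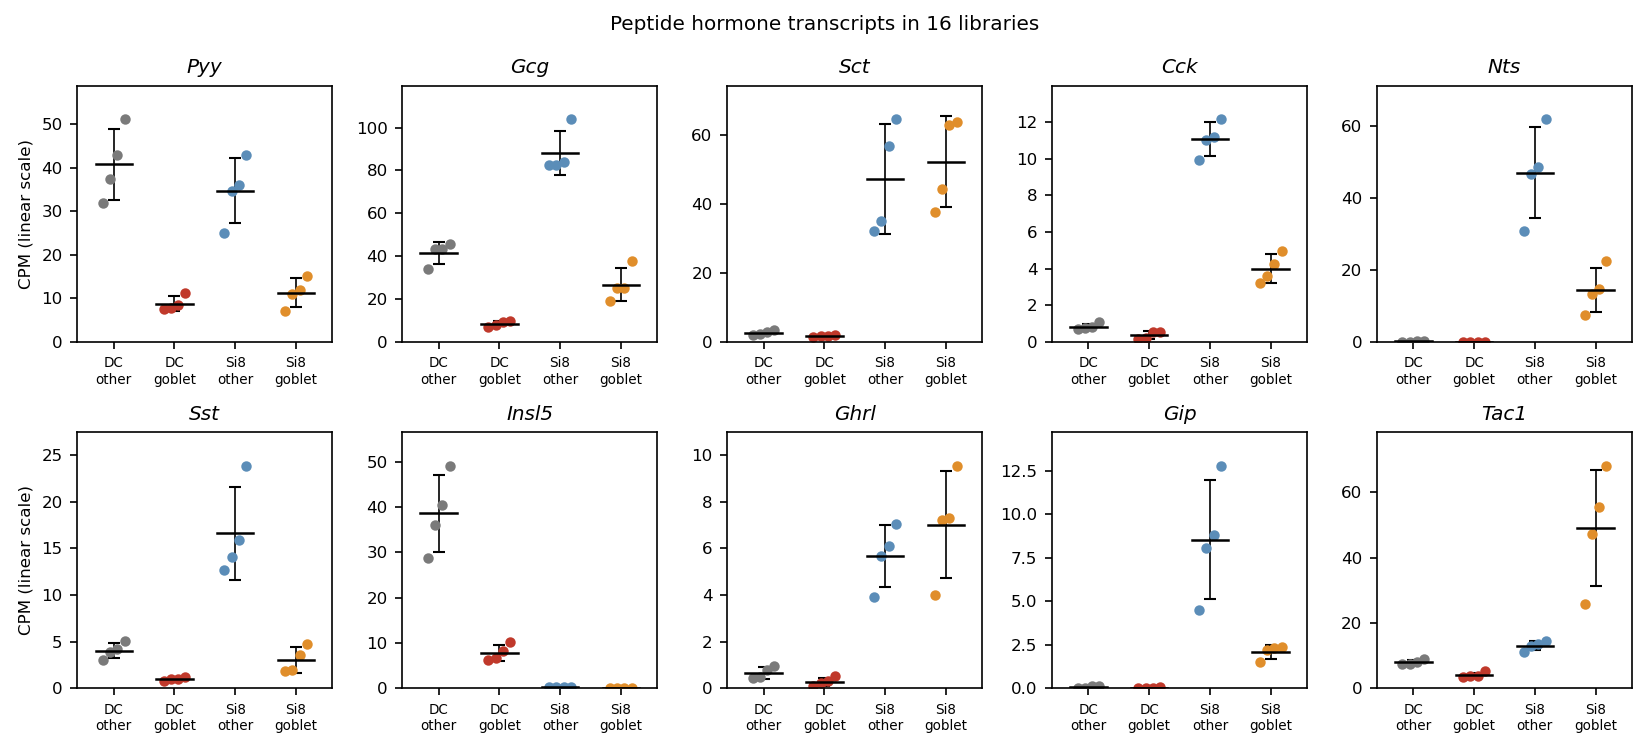
CPM of the 10 peptide hormone genes in each of the 16 libraries (points, drawn within a group in order of value), with the group mean (line) and SD (bar), on linear axes that start at 0 and differ between panels. Insl5 stands far higher in the DC columns than in Si8, Nts, Gip, Sct and Ghrl stand far higher in Si8, and Tac1 has its highest values, 25.7 to 68.0 CPM, in Si8 goblet libraries.

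The 3 serotonin genes did not move as a block. Tph1, the rate-limiting enzyme of serotonin synthesis in enterochromaffin cells, had 29.6, 30.9, 32.4 and 32.7 CPM in DC other and 2.72, 3.23, 3.72 and 3.84 CPM in DC goblet libraries, a 9.25-fold lower level (edgeR adjusted p = 2.93e-11). In Si8 it had 10.7, 11.4, 14.9 and 17 CPM in other and 2.22, 2.48, 3.07 and 4.3 CPM in goblet libraries (4.49-fold lower, edgeR adjusted p = 3.40e-09). The sorts were separate in both regions, and the log2 difference in DC minus that in Si8 was -1.04 ± 0.26 SE (edgeR adjusted p = 0.00404). In other cells Tph1 was 2.32-fold higher in DC than in Si8 (edgeR adjusted p = 1.97e-06), while in goblet cells the regions overlapped.

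Ddc, the decarboxylase that makes serotonin from 5-hydroxytryptophan, is also made by absorptive cells of the gut. It had 82.9, 98.2, 98.3 and 111 CPM in DC other and 47, 52.5, 55.8 and 55.8 CPM in DC goblet libraries (1.85-fold lower, edgeR adjusted p = 3.41e-07). In Si8 it had 34.8, 35.2, 39.4 and 43.9 CPM in other and 16.7, 18.1, 20.5 and 20.8 CPM in goblet libraries (2.01-fold lower, edgeR adjusted p = 5.80e-08). The Ddc differences between sorts, though among the smallest of those called, exceeded the spread, since no libraries overlapped. Slc18a1, the vesicular monoamine transporter VMAT1 that loads serotonin into granules (chr8:69037711-69089235), was higher in Si8 goblet cells. It had 23.1, 25.2, 26.3 and 32.9 CPM there and 6.18, 7.24, 8.94 and 9.45 CPM in Si8 other libraries (3.38-fold higher, edgeR adjusted p = 1.17e-08). In DC the sorts overlapped at 3.47, 3.56, 5.35 and 5.96 CPM in other and 4.81, 4.95, 5.37 and 5.91 CPM in goblet libraries (log2 0.21 ± 0.19 SE, edgeR adjusted p = 0.376). The 2 effects of Slc18a1 differed by -1.55 ± 0.25 SE (log2, DC minus Si8, edgeR adjusted p = 6.39e-05).

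All 5 granins were lower in goblet cells of both regions, beside 18.2% of all genes tested. For these 5, no goblet library reached the level of an other library of its region. How many of all genes were likewise without overlap was not counted. Chgb, secretogranin-1, had 243, 272, 278 and 325 CPM in DC other and 32.5, 36, 38.8 and 49.3 CPM in DC goblet libraries (7.13-fold lower, edgeR adjusted p = 5.62e-10). In Si8 it had 119.7, 124, 138 and 167 CPM in other and 30.8, 35.7, 37.9 and 57.8 CPM in goblet libraries (3.38-fold lower, edgeR adjusted p = 1.40e-07). Chga, chromogranin A, the classic marker of these cells, had 75.1, 80.3, 86.4 and 90.2 CPM in DC other and 10.7, 12, 13 and 15.9 CPM in DC goblet libraries (6.42-fold lower, edgeR adjusted p = 2.23e-10). The Si8 values of Chga were 56.8, 61.1, 80.6 and 87 CPM in other and 15.3, 17.2, 18.9 and 25.3 CPM in goblet libraries (3.72-fold lower, edgeR adjusted p = 9.79e-09).

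For both chromogranins the goblet level lay further below the other sort in DC than in Si8: the log2 difference in DC minus that in Si8 was -1.08 ± 0.24 SE for Chgb and -0.79 ± 0.23 SE for Chga (edgeR adjusted p = 0.00250 and 0.0123). In other cells, Chgb was 2.04-fold higher in DC than in Si8 (edgeR adjusted p = 4.48e-05), and Chga did not pass (log2 0.22 ± 0.15 SE, edgeR adjusted p = 0.220). Scg2, Scg3 and Scg5, a secretogranin precursor of secretoneurin, a granule sorting receptor and the chaperone of convertase 2, were lower at means between 0.343 and 14.8 CPM. Scg2 had 3.15, 3.99, 4.08 and 6.24 CPM in DC other and 0.926, 1.04, 1.2 and 1.32 CPM in DC goblet libraries. In Si8 it had 10.4, 14.1, 15.1 and 19.5 CPM in other and 3.05, 5.1, 6.26 and 8.71 CPM in goblet libraries, so both regions were without overlap. It was 3.92-fold lower in DC goblet and 2.56-fold lower in Si8 goblet cells (edgeR adjusted p = 0.000135 and 0.000170). Scg3 had 1.47, 2.01, 2.44 and 2.66 CPM in DC other and 0.105, 0.370, 0.383 and 0.515 CPM in DC goblet libraries, and 2.66, 3.12, 4.04 and 4.44 CPM in Si8 other and 0.845, 1.09, 1.36 and 1.62 CPM in Si8 goblet libraries. Its goblet levels were 6.34-fold lower in DC and 2.89-fold lower in Si8 (edgeR adjusted p = 2.90e-06 and 2.15e-05). Scg5 stayed below 3 CPM, with 2.0, 2.14, 2.5 and 2.9 CPM in DC other and 0.441, 0.523, 0.555 and 0.821 CPM in DC goblet libraries, and 1.27, 1.39, 1.46 and 1.49 CPM in Si8 other and 0.428, 0.447, 0.512 and 0.670 CPM in Si8 goblet libraries. It was 4.0-fold lower in DC and 2.71-fold lower in Si8 goblet cells (edgeR adjusted p = 3.85e-07 and 6.80e-06). By region, in other cells, Scg5 was 1.69-fold higher in DC, and Scg2 was 3.39-fold and Scg3 1.66-fold lower (edgeR adjusted p = 0.00171, 1.92e-05 and 0.0142). That of Scg3 did not pass without DC other library S10 (edgeR adjusted p = 0.0607) or without Si8 other library S7 (0.0508).

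**Figure D3:**
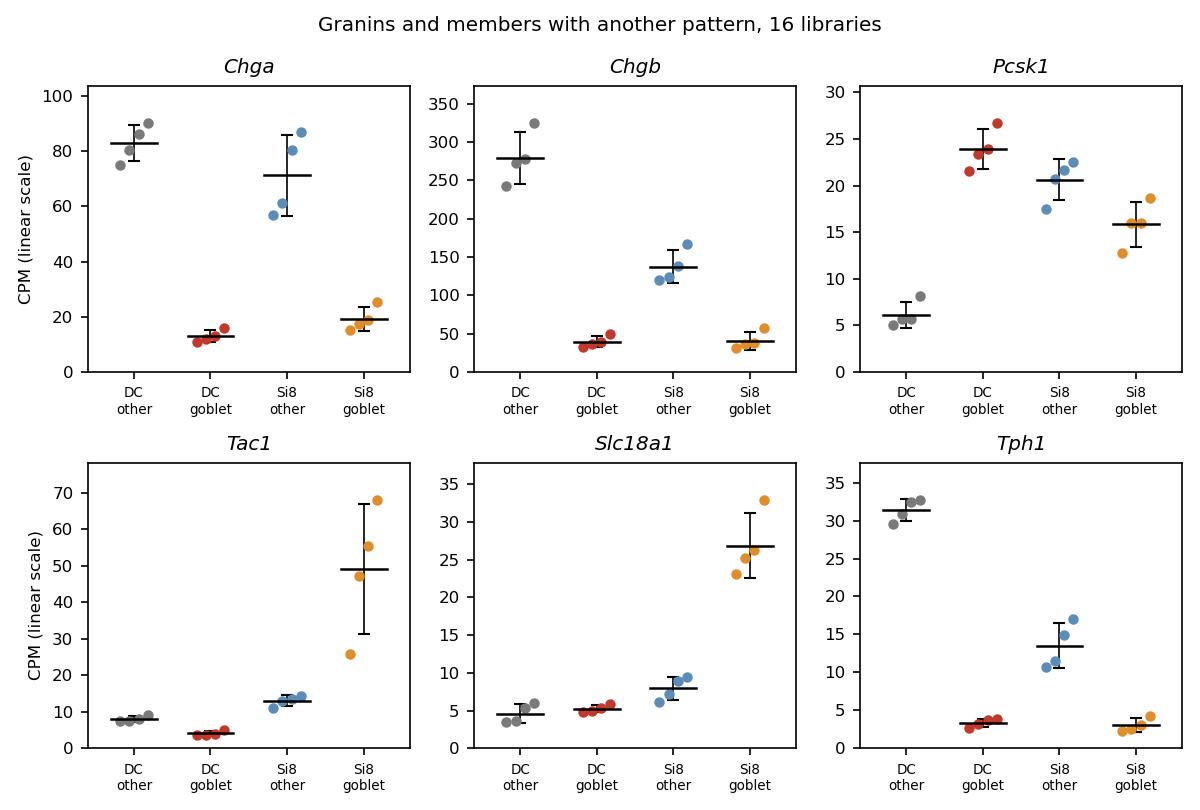
CPM in the 16 libraries (points, in order of value within a group) with group mean (line) and SD (bar) for Chga, Chgb, Pcsk1, Tac1, Slc18a1 and Tph1, on linear axes that start at 0. Chga, Chgb and Tph1 are higher in the other sort of both regions, whereas Pcsk1 is higher in DC goblet libraries (21.6 to 26.7 CPM) and Tac1 and Slc18a1 in Si8 goblet libraries.

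Of the genes that process prohormones, Pcsk1 ran against the rest in the colon. Pcsk1 encodes prohormone convertase 1/3, which cuts proglucagon and other hormone precursors (chr13:75089826-75134861). The DC goblet libraries had 21.6, 23.4, 24 and 26.7 CPM and the DC other libraries 4.99, 5.68, 5.68 and 8.14 CPM, so that each goblet library lay above each library of the other sort (3.89-fold higher, log2 1.96 ± 0.15 SE, edgeR adjusted p = 7.53e-10). In Si8 the sorts overlapped in part, with 17.5, 20.7, 21.7 and 22.6 CPM in other and 12.7, 16, 16 and 18.7 CPM in goblet libraries (1.3-fold lower, edgeR adjusted p = 0.0153). Without Si8 goblet library S4 the Si8 difference no longer passed (edgeR adjusted p = 0.0639). The effects in the 2 regions differed by 2.34 ± 0.20 SE (log2, edgeR adjusted p = 2.13e-08). Pcsk1 was also the reverse between regions by sort: DC was 3.36-fold lower than Si8 in other cells and 1.51-fold higher in goblet cells (edgeR adjusted p = 2.02e-09 and 0.000661).

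The other processing genes followed the granins. Pcsk1n, the proSAAS inhibitor of this convertase, had 2.1, 2.33, 2.38 and 2.78 CPM in DC other and 0, 0.139, 0.294 and 0.314 CPM in DC goblet libraries (13-fold lower, edgeR adjusted p = 1.66e-06). Pcsk1n had 162 counts in DC other and only 13 in DC goblet cells. Its exons share 135 bases with the opposite-strand gene Eras, which had 1 count over the 16 libraries. In Si8 it was 4.37-fold lower in goblet cells (edgeR adjusted p = 9.80e-05), with 0.855, 1.01, 1.36 and 1.65 CPM in other and 0.102, 0.160, 0.351 and 0.502 CPM in goblet libraries. Cpe, the carboxypeptidase that trims the cut peptides, had 18.6, 19.7, 22.5 and 27.6 CPM in DC other and 3.23, 3.61, 3.66 and 4.95 CPM in DC goblet libraries (5.66-fold lower, edgeR adjusted p = 1.20e-07). Its Si8 values were 12.8, 15.8, 16.2 and 19.6 CPM in other and 3.0, 4.41, 4.65 and 8.01 CPM in goblet libraries (3.21-fold lower, edgeR adjusted p = 4.50e-06). Pcsk2, the convertase more typical of pancreatic and neural cells, had 5 counts in DC other, 5 in DC goblet, 2 in Si8 other and 2 in Si8 goblet cells, and was not tested.

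The transcription factors were low, with group means between 0.123 CPM (Pax4 in Si8 goblet cells) and 5.31 CPM (Neurod1 in Si8 other cells) among the 8 tested. In DC, 6 of 8 were lower in goblet cells and none was higher, beside 27.9% lower and 27.8% higher of all genes tested. In Si8, 5 of 8 were lower and none was higher, beside 31.8% lower and 33.1% higher of all genes tested. Neurog3, the factor that starts the endocrine program (chr10:62133090-62134763), had 0.785, 0.842, 0.951 and 1.1 CPM in DC other and 0.0547, 0.147, 0.262 and 0.463 CPM in DC goblet libraries (3.72-fold lower, edgeR adjusted p = 0.000295). In Si8 the sorts overlapped, at 0.478, 0.696, 0.745 and 0.910 CPM in other and 0.481, 0.511, 0.512 and 0.530 CPM in goblet libraries (log2 -0.46 ± 0.29 SE, edgeR adjusted p = 0.170). Without DC goblet library S11, the highest, the DC difference of Neurog3 was -2.52 in place of -1.90 (log2).

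Neurod1 and Insm1, which act soon after Neurog3, were lower in goblet cells of both regions without overlap. Neurod1 had 3.05, 3.89, 4.05 and 5.05 CPM in DC other and 0.523, 0.588, 0.875 and 0.926 CPM in DC goblet libraries (5.38-fold lower, edgeR adjusted p = 9.41e-07). Its Si8 levels were 4.02, 4.78, 5.78 and 6.68 CPM in other and 1.46, 2.03, 2.17 and 3.46 CPM in goblet libraries (2.33-fold lower, edgeR adjusted p = 0.000126). Part of Neurod1 shares 201 exon bases with Cerkl on the same strand. Insm1 had 2.54, 3.1, 3.17 and 4.46 CPM in DC other and 0.383, 0.735, 0.837 and 0.879 CPM in DC goblet libraries (4.62-fold lower, edgeR adjusted p = 1.43e-06). In Si8 it was 1.84-fold lower in goblet cells (edgeR adjusted p = 0.00197), with 2.24, 2.68, 3.15 and 4.02 CPM in other and 1.33, 1.52, 1.53 and 2.15 CPM in goblet libraries.

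Rfx6, a factor of hormone cell maturation, had 1.42, 2.05, 2.2 and 2.72 CPM in DC other and 0.471, 0.694, 0.735 and 0.875 CPM in DC goblet libraries (3.03-fold lower, edgeR adjusted p = 0.000101). In Si8 its sorts overlapped, at 2.12, 2.21, 2.37 and 3.73 CPM in other and 1.43, 1.87, 2.01 and 2.46 CPM in goblet libraries (log2 -0.42 ± 0.22 SE, edgeR adjusted p = 0.0971). Within neighbouring pairs the goblet library of Si8 was the lower one in 4 of 4 for Rfx6, and with the replicate block the difference passed (edgeR adjusted p = 0.0288), as it did without Si8 goblet library S8 (0.0471). Isl1, a LIM-homeodomain factor, had 1.21, 1.49, 1.6 and 1.63 CPM in DC other and 0.441, 0.509, 0.547 and 0.733 CPM in DC goblet libraries. Its Si8 levels, 1.94, 2.76, 2.96 and 3.14 CPM in other and 1.23, 1.5, 1.55 and 2.23 CPM in goblet libraries, overlapped in 1 library. Isl1 was 2.62-fold lower in DC goblet and 1.65-fold lower in Si8 goblet cells (edgeR adjusted p = 0.000262 and 0.00361). Pax4, a paired-box factor of early endocrine precursors, was 4.77-fold lower in DC goblet cells (edgeR adjusted p = 0.000242), on counts of 46 in DC other and 10 in DC goblet cells. In Si8 Pax4 did not pass (log2 -0.91 ± 0.42 SE, edgeR adjusted p = 0.0630). It passed as lower without Si8 other library S1 (edgeR adjusted p = 0.0353) or S3 (0.0469) or Si8 goblet library S8 (0.0322).

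For Pax6 and Nkx2-2 the Si8 calls were lost when some single libraries were left out, and both passed with the replicate block (edgeR adjusted p = 0.00177 and 0.00970). Pax6, which acts on the proglucagon promoter, had 1.73, 2.05, 2.86 and 3.31 CPM in Si8 other and 0.897, 1.18, 1.39 and 2.2 CPM in Si8 goblet libraries (1.75-fold lower, edgeR adjusted p = 0.0201). Its Si8 call was lost without other library S5 or S7 or goblet library S4 or S6, at edgeR adjusted p of 0.0502 to 0.0757. In DC it had 0.712, 1.16, 1.21 and 1.66 CPM in other and 0.262, 0.648, 0.711 and 0.956 CPM in goblet libraries, with overlap (log2 -0.92 ± 0.40 SE, edgeR adjusted p = 0.0571). The DC difference of Pax6 passed with DESeq2 (adjusted p = 0.0304), in an edgeR fit of the 2 DC groups alone (0.0258), with either other filter, with the mitochondrially encoded genes left out, and without DC other library S12 or DC goblet library S18. It also passed with the replicate block (edgeR adjusted p = 0.0244), and within each of the 4 neighbouring pairs, in DC as in Si8, the goblet library was the lower one.

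Nkx2-2, a homeodomain factor, had 0.478, 0.626, 0.875 and 1.04 CPM in Si8 other and 0.282, 0.428, 0.447 and 0.614 CPM in Si8 goblet libraries (1.69-fold lower, edgeR adjusted p = 0.0349). That call was lost without other library S5 or S7, without goblet library S2, S4 or S6, with no filter and with a fit of the 2 Si8 groups alone (edgeR adjusted p of 0.0537 to 0.134). In DC it had 0.971, 1.01, 1.05 and 1.63 CPM in other and 0.509, 0.733, 0.766 and 1.1 CPM in goblet libraries (log2 -0.62 ± 0.32 SE, edgeR adjusted p = 0.106). Exons of Neurog3 and Nkx2-2 overlap opposite-strand genes by 273 and 278 bases, so reads of the partners cannot be told apart where strand was not used. Fev, the factor of serotonin cells, had 10 counts in DC other, 2 in DC goblet, 46 in Si8 other and 25 in Si8 goblet cells. The DC ratio of Fev was 5.35 with a 95% counting interval of 1.1 to 50.2.

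In other cells, Nts, Gip, Sct, Cck, Ghrl, Sst and Insl5 lay further apart between the regions than any tested transcription factor. So did Scg2 and Pcsk1 (log2 -1.76 and -1.75), while the hormones Gcg, Tac1 and Pyy did not (log2 -1.09, -0.70 and 0.23). The DC and Si8 libraries were deposited in separate count tables, and only the DC table has the mitochondrially encoded genes at 0, so region and table cannot be told apart in any value that sets DC against Si8. In the other sort, 14 of 29 genes were lower and 7 were higher in DC than in Si8, beside 33.6% lower and 33.3% higher of all genes tested. Among the 10 hormones 8 were lower in DC, 1 (Insl5) was higher and 1 (Pyy) did not pass, and the differences ran from -8.27 for Nts to 7.06 for Insl5 (log2). Among the 8 transcription factors 2 (Isl1 and Pax6) were lower, 1 (Pax4) was higher and 5 did not pass, within log2 values of -1.06 and 1.49. Neurog3, Neurod1, Insm1 and Rfx6 lay between -0.41 and 0.40, with standard errors of 0.22 to 0.29. The serotonin genes Tph1 and Ddc were higher in DC by 2.32-fold and 2.55-fold, and Slc18a1 was 1.74-fold lower (edgeR adjusted p = 0.000560).

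**Figure D4:**
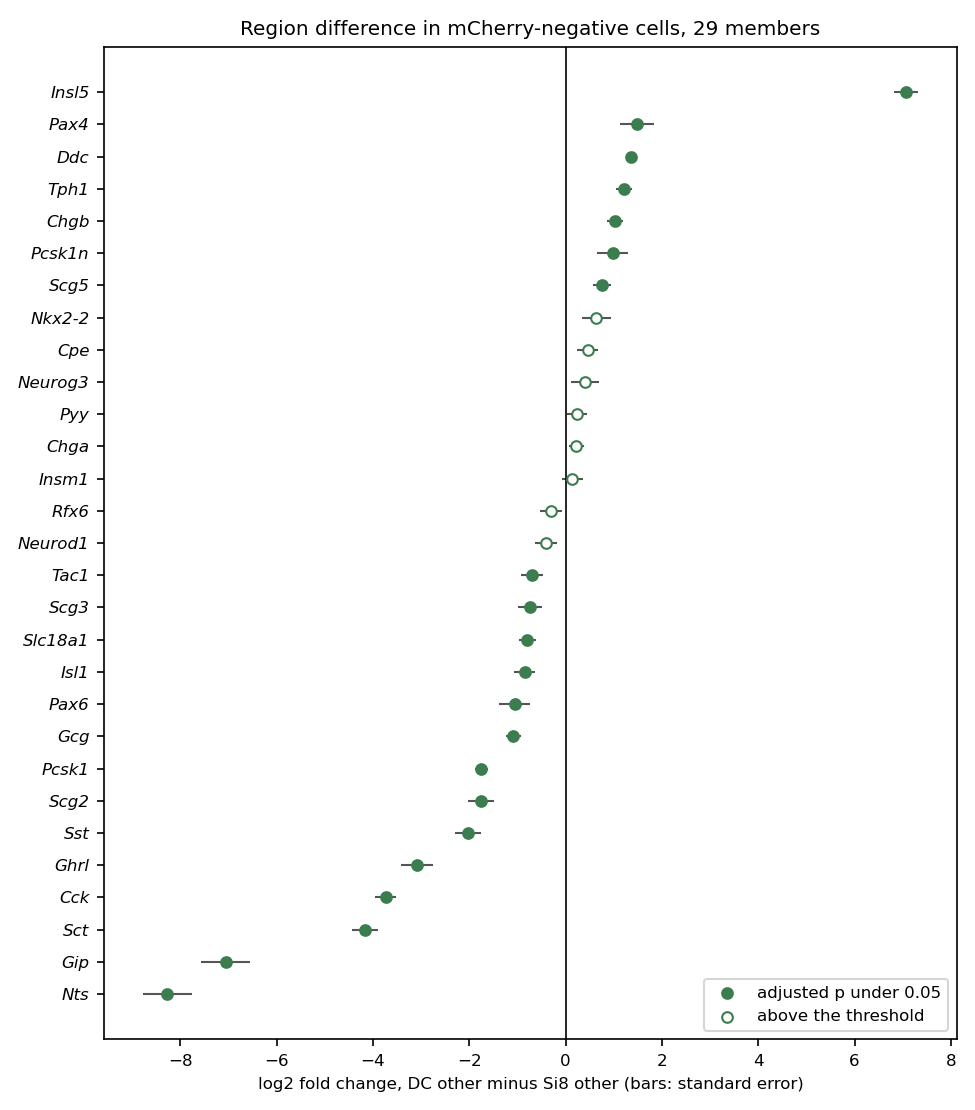
Log2 fold change of DC minus Si8 in other cells (x axis, bars are standard errors) for the 29 tested genes, in order of size; filled points have an adjusted p under 0.05. Nts, Gip, Sct, Cck and Ghrl lie below -3 and Insl5 lies at 7.06, while the transcription factors lie between -1.06 and 1.49 and the granins between -1.76 and 1.03.

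In goblet cells, 18 of 29 genes were lower and 4 were higher in DC than in Si8, beside 31.5% lower and 30.6% higher of all genes tested. The 4 higher genes were Insl5, Ddc (2.77-fold, edgeR adjusted p = 2.96e-10), Pcsk1 and Nkx2-2 (1.71-fold, edgeR adjusted p = 0.0488). The call of Nkx2-2 was lost with DESeq2 (adjusted p = 0.0637), limma voom (0.0508), RLE factors (0.0591), either other filter, the mitochondrially encoded genes left out, and without DC goblet library S9, S13 or S18 or Si8 goblet library S2, S4 or S6. Tac1 was 12-fold and Slc18a1 5.1-fold lower in DC goblet than in Si8 goblet cells (edgeR adjusted p = 7.44e-10 and 4.88e-10). This comparison and that of other cells share no libraries, but each shares its groups with the comparisons between sorts.

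Between genes, levels were compared per kilobase of exon (CPM per kb). In DC other cells the highest levels were those of Chgb (102 CPM per kb), Pyy (64.7), Insl5 (53.4), Chga (30.1) and Gcg (27.7). Si8 other cells had another order, with Sct (73.2 CPM per kb) first, then Gcg (59), Pyy (55), Chgb (50.1) and Nts (37.7). In DC goblet cells Chgb (14.3 CPM per kb) and Pyy (13.9) led, close together. In Si8 goblet cells Sct stood at 81.1 CPM per kb, well above Gcg (17.9) and Pyy (17.9), followed by Chgb (14.8) and Tac1 (14.4). Neighbours such as Gcg and Pyy in Si8 differed by less than their spread, with SDs of 7.02 and 11.7 CPM per kb in Si8 other cells.

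The difference between sorts was itself compared between regions. For 9 of 29 genes the goblet minus other difference was lower in DC than in Si8, and for 1, Pcsk1, it was higher, beside 16.5% lower and 15.6% higher of all genes tested. The 9 were Tac1, Tph1, Slc18a1, Chga, Chgb, Neurog3, Neurod1, Insm1 and Rfx6. For Neurod1 it was -1.21 ± 0.38, for Insm1 -1.33 ± 0.36, for Rfx6 -1.18 ± 0.37 and for Neurog3 -1.44 ± 0.48 (log2 ± SE, edgeR adjusted p = 0.0196, 0.00807, 0.0183 and 0.0283). Those of Neurod1 and Rfx6 were lost without DC goblet library S13, and that of Neurog3 without DC other library S10 or DC goblet library S9 or S18 (edgeR adjusted p of 0.0509 to 0.0537 for the first pair of genes and 0.0631 to 0.0711 for Neurog3). The median of this difference over the 29 genes was -0.79, against -0.0265 over all genes tested. The count of 9 became 15 without Si8 goblet library S4. With DESeq2, the differences of Ghrl, Scg3, Pcsk1n and Cpe also passed (adjusted p = 0.0226, 0.0455, 0.0419 and 0.0441). With the replicate block the count was 17, with Pyy, Gcg, Sct, Ghrl, Scg2, Scg3, Pcsk1n and Cpe added (edgeR adjusted p of 0.00140 to 0.0495). The share of 16.5% belongs to the fit of all libraries without the block, and the share with the block is not given here. With 1 library left out, 4722 to 5459 of all genes passed in either direction. For Pyy the 2 regions' effects did not pass as different in the fit without the block (-0.58 ± 0.30 SE, edgeR adjusted p = 0.157, 0.0331 without Si8 goblet library S4 and 0.0201 with the replicate block). Nor did those of Insl5, Cck and Sst (edgeR adjusted p = 0.362, 0.514 and 0.470).

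Beyond the 31, 5 lists of further enteroendocrine genes were read in the same fit. Their counts stand beside the shares of all genes tested: 27.9% lower and 27.8% higher in DC goblet cells, and 31.8% lower and 33.1% higher in Si8 goblet cells. Of other gut peptides, 18 of 19 were listed in the files and 4 passed the filter: 2 were lower in DC goblet and 3 in Si8 goblet cells, and none was higher. Ppy, pancreatic polypeptide, was 13.7-fold lower in DC goblet cells at a mean of only 0.627 CPM in DC other cells (edgeR adjusted p = 1.39e-05). Vgf, a granin-like precursor, was 2.3-fold lower in DC and 2.75-fold lower in Si8 goblet cells (edgeR adjusted p = 0.0165 and 9.90e-05). Iapp, amylin, was 1.92-fold lower in Si8 goblet cells (edgeR adjusted p = 0.0255).

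Of 8 tested genes that handle monoamines, 6 were lower and 2 higher in DC goblet cells, and 7 were lower and 1 higher in Si8 goblet cells. Gch1, which makes the biopterin cofactor of tryptophan hydroxylase, had means of 38.3 CPM in DC other and 7.64 CPM in DC goblet cells (5.03-fold lower, edgeR adjusted p = 1.72e-11). Maoa, the oxidase that breaks serotonin down, was 4.36-fold lower in DC and 2.21-fold lower in Si8 goblet cells (edgeR adjusted p = 2.38e-11 and 1.15e-07). Slc6a4, the serotonin reuptake transporter known from enterocytes, was 3.8-fold lower in Si8 goblet cells at 46 against 12.1 CPM (edgeR adjusted p = 4.27e-12). This gene was named after its values were seen. Qdpr, which recycles biopterin, was 1.46-fold higher in DC and 1.46-fold lower in Si8 goblet cells (edgeR adjusted p = 2.03e-05 and 1.36e-05). Pts, also of biopterin synthesis, was higher in both (1.64-fold in DC and 1.2-fold in Si8, edgeR adjusted p = 1.42e-06 and 0.0141).

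Of the 27 tested genes of regulated exocytosis, more than the share of all genes were lower in goblet cells, and those higher stood near that share in DC and below it in Si8. In DC 15 were lower and 9 higher in goblet cells, and in Si8 17 were lower and 6 higher. Genes known from neurons and endocrine cells were among the lower ones: Snap25, a SNARE of vesicle fusion, was 6.21-fold lower in DC and 3.04-fold lower in Si8 (edgeR adjusted p = 4.30e-07 and 4.77e-05). Pam, which amidates peptides, was 4.1-fold and 2.59-fold lower (edgeR adjusted p = 5.09e-11 and 1.66e-08). Ptprn2, a granule membrane protein also called phogrin, was 12.4-fold higher in DC and 10.2-fold higher in Si8 goblet cells (edgeR adjusted p = 1.22e-12 and 2.25e-12). Its relative Ptprn was 4.72-fold and 3.82-fold lower (edgeR adjusted p = 3.43e-05 and 4.54e-06). Syt7, a calcium sensor of exocytosis, was 12.5-fold higher in DC and 2.8-fold higher in Si8 goblet cells (edgeR adjusted p = 4.89e-11 and 1.16e-06). Unc13b, a vesicle priming factor, was 1.24-fold and 3.26-fold higher (edgeR adjusted p = 0.0369 and 4.86e-10). Rab3b, a vesicle GTPase, was 18.3-fold higher in DC goblet cells (edgeR adjusted p = 2.49e-09) and did not pass in Si8 (edgeR adjusted p = 0.796). For Rab3b the difference between the regions' effects itself passed (4.33 ± 0.60 SE, log2, edgeR adjusted p = 1.33e-05). Snap25, Ptprn and Rab3b were named after their values were seen.

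**Figure D5:**
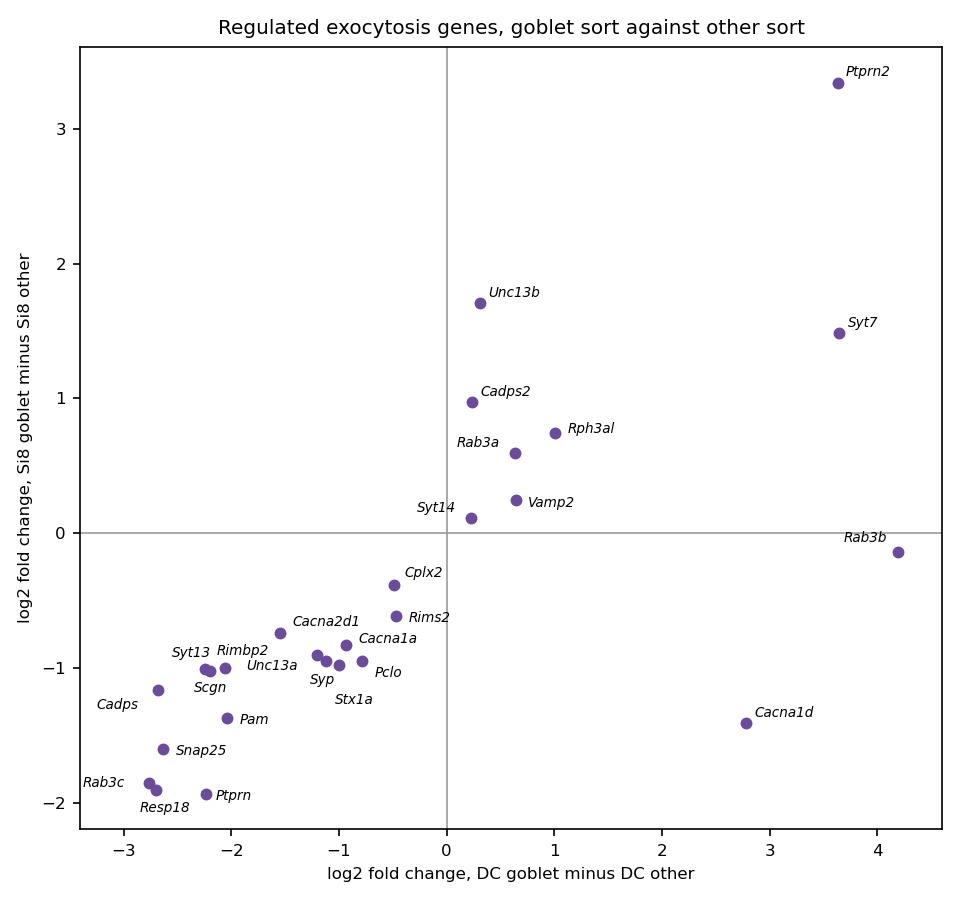
Log2 fold change of goblet minus other cells in DC (x axis) and in Si8 (y axis) for the 27 tested genes of the exocytosis list, 1 point per gene. Most genes lie at the lower left, while Ptprn2 and Syt7 lie at the upper right and Rab3b lies at 4.19 on the x axis and near 0 on the y axis.

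Of 17 tested genes of nutrient and metabolite sensing, 11 were lower and 2 higher in DC goblet cells, and 9 were lower and 3 higher in Si8. The 2 higher in both regions were receptors for fatty acids. Ffar2, the short-chain fatty acid receptor, had means of 2.21 CPM in DC other and 73.3 CPM in DC goblet cells (33.2-fold higher, edgeR adjusted p = 1.54e-14), and was 13.4-fold higher in Si8 (edgeR adjusted p = 5.83e-13). Ffar4, the long-chain fatty acid receptor, was 6.88-fold and 5.89-fold higher (edgeR adjusted p = 7.15e-10 and 1.91e-09). Slc5a1, the glucose transporter SGLT1, also of absorptive cells, was 1.83-fold and 7.01-fold lower (edgeR adjusted p = 4.26e-05 and 9.09e-12). Adra2a, an adrenergic receptor, was 2.74-fold lower in DC and 2.33-fold higher in Si8 goblet cells (edgeR adjusted p = 5.01e-07 and 3.18e-06). Piezo2, the mechanosensitive channel of enterochromaffin cells, had 13 CPM in DC other, 2.66 in DC goblet, 0.100 in Si8 other and 0.0904 in Si8 goblet cells (4.77-fold lower in DC goblet cells, edgeR adjusted p = 6.56e-08). Adra2a and Piezo2 were named after their values were seen.

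Of 16 tested further transcription factors of the lineage, 8 were lower and 4 higher in DC goblet cells, and 7 were lower and 5 higher in Si8. The counts of higher factors stood near the shares of all genes tested. Foxa1 and Foxa2, forkhead factors, are also known from goblet cells. Foxa2 was 3.08-fold higher in DC and 9.64-fold higher in Si8 goblet cells (edgeR adjusted p = 5.35e-09 and 2.25e-12). Foxa1 was 1.31-fold and 1.62-fold higher, and Sox4, a progenitor factor, was 1.71-fold lower in DC and 1.35-fold higher in Si8 (edgeR adjusted p = 0.0110 and 6.48e-05 for Foxa1, 1.58e-05 and 0.00314 for Sox4). Prox1, a homeobox factor, was 7.55-fold higher in Si8 goblet cells, at 22.9 against 3.04 CPM (edgeR adjusted p = 2.25e-12). Lmx1a, a factor of enterochromaffin cells that was named after its values were seen, was 4.59-fold lower in DC and 3.57-fold lower in Si8 goblet cells (edgeR adjusted p = 3.88e-08 and 3.92e-07).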

How the data were processed

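RNA of mCherry-positive and mCherry-negative epithelial cells from 2 gut regions was sequenced as 16 libraries, 4 per group, with groups taken from the labels. Libraries were stranded, depleted of ribosomal RNA and paired-end, per the labels' protocols. The authors deposited raw read counts per gene in a table for each region. The submitters' processing notes name STAR 2.4.0f, the HTSeq counter 0.6.1p1, the FastQC tool 0.11.2, DESeq2 1.14 and the genome build mm10. Parameters and the strand setting were not given in the sources used here. A table of normalized values (16 columns) was not used, and 4 entries with a repeated symbol were dropped.

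The test was edgeR's (version 4.0.16, R 4.3.3) robust quasi-likelihood F test, after TMM scaling and the filterByExpr filter, in a single model of all 4 groups, with Benjamini-Hochberg adjustment over 16001 genes at 0.05. It was tested on simulated data. Standard errors were obtained by dividing the size of the log2 difference by the root of the F statistic. CPM uses TMM-scaled totals, and CPM per kb divides by the merged exons of GENCODE M21 (GRCm38, which is mm10). Depth was 11.9 to 41.1 M counts per library, and the common biological coefficient of variation was 0.128. Intervals cover counting error only. Counts over pairs of libraries of a group differed beyond sampling noise (lowest chi-square per degree of freedom 4.56), so none was counted as a repeat.

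Members that averaged 1 CPM or more in some group are described in full. Of each further list, the text names at most the 3 called genes with the largest mean in the higher group per sort comparison, and other names are marked. Some genes of the lists are not reported here. The members and lists were chosen with earlier results of these data known. Alternatives were DESeq2 1.42.0, limma voom 3.58.1, RLE factors, 2 other filters, fits of the 2 groups compared, leaving out mitochondrially encoded genes, leaving out each library and, added after seeing the data, a replicate block on neighbouring library numbers. No label gives that pairing. In its check, on log2(CPM + 1), the neighbour was the best match for 7 of 8 other and 8 of 8 goblet libraries.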

Additional observations from a re-analysis of the deposited data

Results flagged for a closer look

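In 116 groups of 4 libraries (29 genes in 4 groups), 5 had a lone value, where the gap of the highest or lowest library to its neighbour exceeded Dixon's critical share of the range; chance gives about 1 in 20. They were Gcg in Si8 other library S7 (103.9 CPM), Rfx6 in the same library (3.73 CPM), Nkx2-2 in DC other library S17 (1.63 CPM), Nts in DC goblet library S11 (0.0463 CPM) and Gip in DC goblet library S18 (0.0735 CPM). Those of Nts and Gip are single counts.

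The goblet minus other difference differed between the regions by the test of that difference itself for 10 of the 29 genes (DC minus Si8, log2). It was -2.89 for Tac1, -1.55 for Slc18a1, -1.44 for Neurog3, -1.33 for Insm1, -1.21 for Neurod1, -1.18 for Rfx6, -1.08 for Chgb, -1.04 for Tph1 and -0.79 for Chga. For Pcsk1 it was 2.34. Tac1 and Pcsk1 had calls of opposite direction in the 2 regions.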

How the results depend on the processing

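The counts of members called kept within 1.5 times of the values given under every alternative run, with the exception of the 9 genes whose goblet difference was lower in DC: 14 with no filter on low counts, 17 with the replicate block, and 7 to 15 when 1 library was left out. Shares of all genes lower under these settings are not given here. Of the differences that were not called, some changed sign. With limma voom the Nts difference between the regions' effects was 0.048. When 1 library was left out, the difference between the regions' effects ranged from -1.74 to 0.786 for Gip, from -0.352 to 0.180 for Pax6, from -0.0103 to 0.187 for Ddc and from -0.0503 to 0.339 for Nkx2-2. DC minus Si8 ranged from -0.0389 to 0.315 for Insm1 in other cells, and in goblet cells from -0.0682 to 0.482 for Pax4, from -0.189 to 0.188 for Chgb and from -0.00852 to 0.363 for Scg5; the cause was not tested. With limma voom, Tac1 no longer passed between regions in other cells (adjusted p = 0.0568). The replicate block on neighbouring library numbers, chosen after seeing the data, could be fitted for the sort differences and not for the region differences. It ended no call of a member, added 4 in DC, 2 in Si8 and 8 among the differences between the regions' effects, and left the directions as they were. Low counts limit Nts and Gip in DC, Insl5 in Si8 goblet cells, Pax4, Pcsk2 and Fev. Counts in DC goblet cells were also low for Pcsk1n (13), Neurog3 (18), Ghrl (22), Scg3 (24) and Cck (28).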
